A study of Mus musculus with 17 samples.

Results

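The hippocampus of adult daughters of rapamycin-treated aged mothers was compared with that of daughters of untreated aged mothers, by RNA sequencing of CD1 wild-type mice. The comparison rests on 6 of the 17 libraries of the series, taken by their labels: 3 from offspring of aged mothers that had received rapamycin (rapamycin offspring) and 3 from offspring of aged mothers that had not (aged offspring). Another 4 hippocampus libraries, from offspring of young untreated mothers (young offspring), are given beside them as a level, and the 7 oocyte libraries of the series are not used here. Treated mothers had received rapamycin at 2 mg/kg by injection into the abdomen for 40 weeks from the age of 8 weeks. The offspring were females aged 40 to 44 weeks, about 10 months, and one hippocampus per animal was kept in RNAlater. The labels give neither the age of the mothers at mating nor the interval between the last injection and conception. They also do not say whether the daughters came from separate litters, and p-values here therefore reflect how far libraries of a group differ, for technical reasons included.

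Rapamycin binds the immunophilin FKBP12, encoded by Fkbp1a, and the complex inhibits the kinase mTOR. Active mTOR complex 1 promotes translation, ribosome production and lipid synthesis and holds back autophagy. In the hippocampus, a region needed for forming memories of places and events, mTOR signalling also takes part in the protein synthesis that lasting synaptic change requires. The comparison asks whether treatment of aged mothers goes with a difference in the hippocampus of their adult daughters.

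The 6 libraries held 16822168 to 20220617 counts, and 3 counts, the limit below which a gene is treated as not detected, corresponded to between 0.151 and 0.187 CPM (CPM being counts scaled to a common library size with TMM factors) over the 10 hippocampus libraries. Markers of hippocampal neurons were present throughout. Prox1, a marker of dentate granule cells, ranged between 48.1 and 72.1 CPM in rapamycin offspring and between 40.8 and 57.7 CPM in aged offspring, and Wfs1, a marker of CA1 pyramidal neurons, between 102 and 194 CPM and between 111 and 252 CPM in the same groups. Ddx3y, Uty and Eif2s3y from the Y chromosome had 0 counts in every library, while the female-specific Xist was at 249.8 CPM or more. The haemoglobin genes Hba-a1 and Hbb-bs also had 0 counts in every library, but so did Rpl26, Ndufs5 and Eif3j1. Alas2, listed here as a blood cell gene, averaged 3.68 CPM in rapamycin and 2.87 CPM in aged offspring. The haemoglobin zeros therefore do not show that blood was absent, and their cause was not tested. Along the first principal component of the 6 libraries, which carried 42.9% of the variance, the groups did not separate: rapamycin replicates 1, 2 and 3 lay at -23.55, 16.77 and -20.32, and aged replicates at 10.84, 9.318 and 6.932. Rapamycin replicate 2 therefore lay on the side of the aged libraries, away from the other replicates of its own group. In bulk tissue such as this, fewer cells of a type and less RNA per cell cannot be told apart. Aged replicate 1 stood apart in genes of the habenula, a region next to the hippocampus. Pou4f1 was at 9.454 CPM there, against 0.06224 CPM or less in the other 5 libraries, and Chrnb3 at 5.283 CPM, against 0.3326 CPM or less.

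No gene passed the test between rapamycin and aged offspring. Of 14877 genes tested, 0 (0%) had an adjusted p under 0.05 by edgeR's quasi-likelihood test with Benjamini-Hochberg adjustment, and the smallest adjusted p was 0.531. At an unadjusted p under 0.05 there were 673 genes (4.52%), 377 of them (2.53%) higher and 296 (1.99%) lower in rapamycin offspring, where 744 would be expected if no gene differed. The libraries of the groups did not overlap for 1471 genes (9.89%), with rapamycin offspring above for 745 (5.01%) and below for 726 (4.88%). DESeq2 on the same counts called 13 genes, 4 higher (Btg2, Fam210b, Zfp36 and Abca9) and 9 lower (Mocs2, Lefty1, 2610507I01Rik, Bambi, Hspa1a, Arxes2, Serpini1, Nppc and Bcl6). The difference in Lefty1 rests on aged replicate 3, without which its edgeR log2 fold change was 0. Without rapamycin replicate 2, edgeR still called 0 genes, but 3461 (22.9%) had an unadjusted p under 0.05 (10.9% higher, 12% lower). It also called 0 without aged replicate 1, with 339 (2.25%) under 0.05, without rapamycin replicate 1, with 336 (2.23%), and without young replicate 2, with 1156 (7.79%). With only the 6 libraries in the fit, edgeR called 2 genes, Mocs2 and 2610507I01Rik, and without young replicate 3 it called Mocs2. None passed between rapamycin and aged offspring in the main edgeR fit of the 10 hippocampus libraries. The genes below are therefore described by their values, as the genes with the smallest p and the members of lists set for this tissue. List counts given below without a share of all genes are to be read against the shares above. At an unadjusted p under 0.05 these are 2.53% higher and 1.99% lower, or 10.9% and 12% without rapamycin replicate 2. For libraries that do not overlap they are 5.01% above and 4.88% below.

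**Figure D1:**
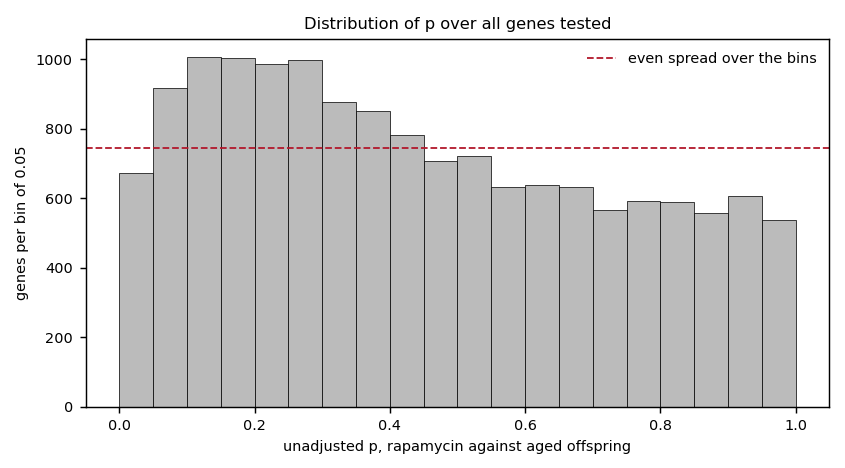
Number of the 14877 genes tested (vertical axis) by unadjusted p between rapamycin and aged offspring (horizontal axis, bins of 0.05). The dashed line is an even spread over the bins; the lowest bin holds 673 genes, under the 744 of an even spread, and the bins between 0.05 and 0.45 rise above the line.

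Of the 8 genes of smallest p that were higher in rapamycin offspring, 3 (Btg2, Zfp36 and Klf2) are early response genes, which cells transcribe within minutes of a stimulus. The lists of early genes as a whole, given further on, had medians below 0. Btg2, an antiproliferative early response gene that takes part in mRNA deadenylation, had 63.7, 45.7 and 61.6 CPM in rapamycin offspring, against 24.9, 20.3 and 30.0 CPM in aged offspring and 14.5, 15.7, 16.1 and 13.8 CPM in young offspring. All rapamycin libraries lay above all aged libraries, and these above all young ones. The log2 fold change between rapamycin and aged offspring was 1.18 ± 0.18 (standard error, as for all log2 fold changes here), with an edgeR adjusted p of 0.531. DESeq2 gave an adjusted p of 1.39e-05, and over all alternatives the adjusted p of Btg2 lay between that value and 1. Between rapamycin and young offspring, Btg2 passed the test, at 1.92 ± 0.16 on the log2 scale (edgeR adjusted p = 0.00154). Btg2 was chosen for its high values in these same rapamycin libraries, which favours a pass, so that test is no separate support.

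Zfp36, which encodes the RNA-binding protein tristetraprolin that speeds the decay of mRNAs with AU-rich elements, was likewise higher. It was at 11.3, 7.22 and 6.94 CPM in rapamycin offspring, 3.95, 3.38 and 3.57 CPM in aged offspring, and 3.82, 3.71, 3.77 and 3.46 CPM in young offspring. Rapamycin libraries lay above the rest, and aged and young libraries overlapped. The log2 fold change against aged offspring was 1.22 ± 0.22 (edgeR adjusted p = 0.712; DESeq2 adjusted p = 0.00226, and between 0.00226 and 1 over all alternatives). The transcription factor Klf2, an early gene that endothelial cells express at high level, was at 13.0, 7.66 and 15.6 CPM in rapamycin offspring against 5.34, 5.54 and 6.38 CPM in aged offspring, a log2 fold change of 1.07 ± 0.25. For Klf2 and every gene named below except Fam210b, the edgeR adjusted p between rapamycin and aged offspring was 0.702 or higher. The lowest rapamycin value of Klf2 was that of replicate 2, the library lowest in endothelial genes within its group.

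The phosphatase gene Dusp1, which shuts off MAP kinases, had 64.5, 47.5 and 48.0 CPM in rapamycin offspring, against 19.2, 26.9 and 38.7 CPM in aged offspring and 10.9, 14.4, 10.96 and 12.5 CPM in young offspring. As for Btg2, the 3 groups did not overlap. Its log2 fold change was 0.92 ± 0.24 against aged offspring and 2.13 ± 0.23 against young offspring, and the second passed the test (edgeR adjusted p = 0.00831). Counts of Dusp1 may include reads of overlapping genes, among them Ergic1 on the opposite strand. Ier2, an early gene of nuclear location, was at 15.7, 14.6 and 14.2 CPM in rapamycin offspring and 6.34, 7.43 and 10.3 CPM in aged offspring, a log2 fold change of 0.88 ± 0.25. Cyr61, a secreted matrix protein of the same early class that was chosen after its values were seen, had 19.9, 15.4 and 13.1 CPM in rapamycin offspring, against 5.06, 7.48 and 12.1 CPM in aged offspring and 3.05, 3.34, 3.37 and 3.51 CPM in young offspring. Both Ier2 (log2 fold change 1.68 ± 0.23, edgeR adjusted p = 0.037) and Cyr61 (2.28 ± 0.27, edgeR adjusted p = 0.0153) were higher in rapamycin than in young offspring. Aged libraries of Cyr61, like those of Dusp1, also lay above all young ones. Dusp1, Ier2 and Cyr61 were picked through their values in these same rapamycin libraries. That choice favours a pass against young offspring, so these passes are no separate support.

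The promoters of 3 of these genes are shown because each holds a full site for a factor that responds to neuronal activity or growth signals. They are the 250 bases before the start of each gene in RefSeq (GRCm38.p6), on the gene's own strand. Capitals mark the cAMP response element TGACGTCA, bound by CREB, in Btg2 (chr1:134079156-134079405, minus strand) and Dusp1 (chr17:26508473-26508722, minus strand), and the CArG box, bound by serum response factor, in Zfp36 (chr7:28379229-28379478, minus strand).
Btg2: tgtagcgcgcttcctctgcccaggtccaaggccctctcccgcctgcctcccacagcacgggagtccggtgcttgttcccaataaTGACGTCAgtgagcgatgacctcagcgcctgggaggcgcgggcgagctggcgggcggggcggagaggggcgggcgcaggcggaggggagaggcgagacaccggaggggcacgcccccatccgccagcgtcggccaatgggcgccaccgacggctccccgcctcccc
Dusp1: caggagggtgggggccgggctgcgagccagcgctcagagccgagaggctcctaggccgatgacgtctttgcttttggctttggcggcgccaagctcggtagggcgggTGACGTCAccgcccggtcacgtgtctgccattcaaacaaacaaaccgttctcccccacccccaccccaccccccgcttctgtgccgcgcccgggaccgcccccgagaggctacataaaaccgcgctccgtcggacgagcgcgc
Zfp36: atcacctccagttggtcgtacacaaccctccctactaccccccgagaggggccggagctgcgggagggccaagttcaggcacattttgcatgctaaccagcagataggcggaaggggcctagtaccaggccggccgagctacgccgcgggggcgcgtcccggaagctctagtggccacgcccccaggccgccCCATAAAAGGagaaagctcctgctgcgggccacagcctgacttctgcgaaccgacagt
The element lay at -166 to -159 in Btg2 and at -143 to -136 in Dusp1, and the CArG box at -58 to -49 in Zfp36, where -1 is the base before the start. Both strands of each window were searched from 250 bases before to 50 after the start. The cAMP response element was found in 1.88% of the windows of 27025 genes and in 3.23% of those of 11367 genes tested here, and the CArG box in 1.57% and 1.34%. Among the 36 early and activity-induced genes with a window, 5 (13.9%) held the cAMP response element and 1 (2.78%) a CArG box. The early genes Klf2, Fos and Npas4 held neither full site in the 250 bases before the start, and Ier2 had no window. A match describes the letters and does not show that a factor binds there.

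The most used activity marks overlapped between rapamycin and aged offspring. Neurons transcribe these within minutes to hours of firing, and Fos, Egr1, Arc and Npas4 are widely used as marks of recently active cells. Fos was at 66.1, 59.4 and 45.3 CPM in rapamycin offspring, 27.4, 37.8 and 61.5 CPM in aged offspring, and 5.99, 7.24, 4.53 and 6.61 CPM in young offspring. Rapamycin and aged libraries overlapped, with a log2 fold change of 0.43 ± 0.28 (95% interval -0.18 to 1.04), and both groups lay far above the young one. Npas4, a transcription factor specific to neurons, was at 36.3, 23.3 and 37.4 CPM in rapamycin offspring against 12.0, 12.8 and 23.5 CPM in aged offspring, where the lowest rapamycin library and the highest aged one met (log2 fold change 1.00 ± 0.50).

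Arc, which regulates the trafficking of AMPA receptors, was at 232, 321 and 280.1 CPM in rapamycin offspring and 271, 259 and 404 CPM in aged offspring, so the groups overlapped (log2 fold change -0.17 ± 0.23). Egr1 overlapped likewise, at 187, 206 and 204 CPM in rapamycin offspring and 216, 173 and 308 CPM in aged offspring. Aged replicate 3 held the highest value of the aged group for Fos, Arc, Egr1 and Npas4, and without it the log2 fold changes of Arc and Egr1 were 0.07 and 0.03 instead of -0.17 and -0.22. Bdnf, a growth factor released at synapses, averaged 52.7 ± 7.28 CPM in rapamycin offspring and 59.4 ± 7.24 CPM in aged offspring (SD, n = 3 each).

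Over 21 early transcription factors tested, 8 had a fold change above 0, against 52.6% of all genes, and the median log2 fold change was -0.17, against 0.02 over all genes. At an unadjusted p under 0.05, 2 were higher (Klf2 and Ier2) and 1 lower (Nr4a2). The orphan nuclear receptor gene Nr4a2 was at 81.8, 73.0 and 53.5 CPM in rapamycin offspring and 91.3, 87.1 and 103 CPM in aged offspring, without overlap. Against young offspring, the median of the list was 1.05 for rapamycin offspring and 1.05 for aged offspring, 2 comparisons that share the young libraries. Without aged replicate 3, the median between rapamycin and aged offspring was 0.03, with 4 genes higher and 0 lower. Without any 1 other library the number lower lay between 0 and 3. Of 27 effector genes, 7 had a fold change above 0, with a median of -0.20. Here 3 were higher at an unadjusted p under 0.05 (Btg2, Dusp1 and Cyr61) and 2 lower. These were Crem, a repressor and activator of cAMP-driven transcription, at 13.9, 14.7 and 14.4 CPM in rapamycin offspring against 24.1, 20.6 and 18.8 CPM in aged offspring, and the kinase gene Sgk1. Crem levels in rapamycin offspring lay within the range of young offspring, between 13.1 and 16.9 CPM. The number lower in this list was 7 without young replicate 2 and 5 without rapamycin replicate 2, aged replicate 2 or young replicate 3.

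**Figure D2:**
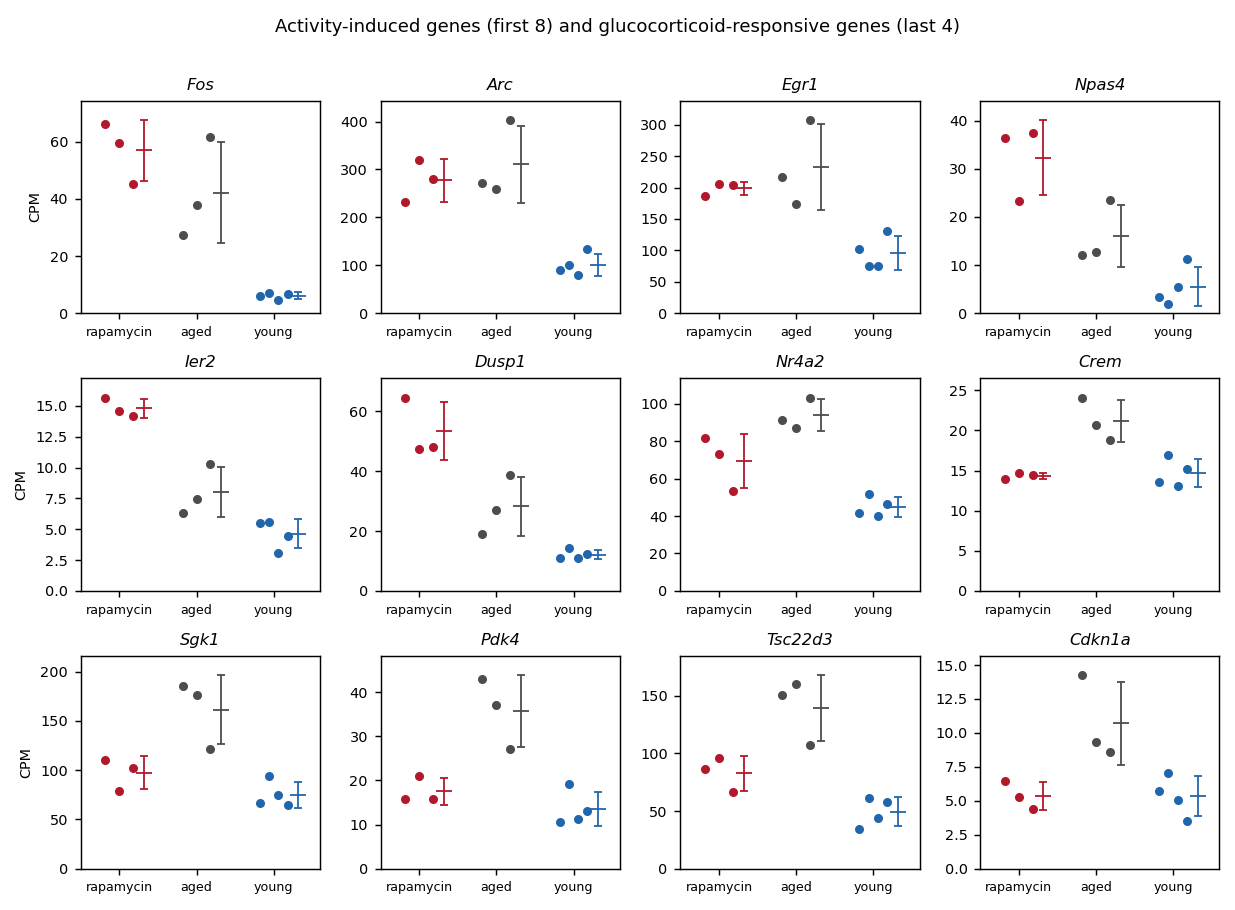
Level in CPM (vertical axes, from 0) of 8 activity-induced and 4 glucocorticoid-responsive genes in each library (points) of rapamycin, aged and young offspring, with the group mean ± SD as bars. Ier2 and Dusp1 are above all aged libraries in rapamycin offspring, Fos, Arc and Egr1 overlap between those groups, and Nr4a2, Crem, Sgk1, Pdk4, Tsc22d3 and Cdkn1a are below.

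Outside the early genes, 5 of the 8 genes of smallest p that were higher in rapamycin offspring have other roles. Fam210b, a mitochondrial inner membrane protein of chromosome 2 (GRCm38 positions 172345565 to 172355749, plus strand), was at 54.6, 64.0 and 52.8 CPM in rapamycin offspring and 21.7, 22.7 and 28.3 CPM in aged offspring. Young offspring were at 48.5, 35.6, 60.5 and 56.1 CPM, so the aged libraries lay below both other groups and these overlapped. The log2 fold change was 1.24 ± 0.20 between rapamycin and aged offspring (edgeR adjusted p = 0.531; DESeq2 adjusted p = 4.79e-05, and between 4.79e-05 and 1 over all alternatives), and 0.19 ± 0.18 between rapamycin and young offspring. The rapamycin libraries of the 16 genes of smallest p all lie on 1 side of the aged ones because the rule required it, together with the expression minimum, a condition that 3.69% of all tested genes met as higher and 3.84% as lower. Pdk1, a mitochondrial kinase that inhibits pyruvate dehydrogenase, was at 52.6, 47.5 and 23.03 CPM in rapamycin offspring and 15.7, 16.6 and 20.5 CPM in aged offspring. Rapamycin replicate 3 lay close to the aged range.

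Gpr17, a receptor that marks oligodendrocyte precursors committed to differentiation, had 57.6, 41.9 and 41.3 CPM in rapamycin offspring and 26.5, 28.8 and 30.4 CPM in aged offspring, a log2 fold change of 0.72 ± 0.16. Young offspring, between 23.1 and 28.5 CPM, overlapped with aged ones. Lipa, the acid lipase that breaks down cholesteryl esters in lysosomes, was at 26.2, 22.4 and 21.5 CPM in rapamycin offspring and 14.8, 14.5 and 15.9 CPM in aged offspring. Abca9, a membrane transporter of the ABC family, averaged 15.9 ± 2.52 CPM in rapamycin offspring and 9.81 ± 0.266 CPM in aged offspring (SD, n = 3 each), without overlap for either gene.

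Among genes lower in rapamycin offspring, the difference of smallest p was that of Mocs2, which encodes both subunits of molybdopterin synthase, an enzyme of molybdenum cofactor synthesis. Mocs2 (chromosome 13, GRCm38 positions 114818236 to 114832275, plus strand) was at 13.5, 18.9 and 16.6 CPM in rapamycin offspring and 74.7, 64.0 and 65.7 CPM in aged offspring. Young offspring were at 37.1, 47.5, 13.8 and 39.0 CPM, so 1 young library lay among the rapamycin values and the others between the groups. The log2 fold change was -2.06 ± 0.36 (edgeR adjusted p = 0.702). With only the 6 libraries in the fit, which leaves out the spread among young libraries, Mocs2 passed the test (edgeR adjusted p = 0.015), as it did without young replicate 3 (0.00411). Its adjusted p lay between 4.79e-05 and 1 over all alternatives, and its log2 fold change between -2.19 and -1.76.

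A similar pattern was seen for 2610507I01Rik, a transcript annotated without a protein product on chromosome 11, which falls outside the naming rule and was chosen after its values were seen. It was at 0.812, 1.12 and 1.05 CPM in rapamycin offspring, 19.4, 11.7 and 11.5 CPM in aged offspring, and 12.0, 14.2, 1.36 and 1.19 CPM in young offspring. Young libraries were thus divided, with replicates 1 and 2 in the aged range and replicates 3 and 4 close to the rapamycin libraries. The log2 fold change between rapamycin and aged offspring was -3.83 ± 0.91. It passed with only the 6 libraries in the fit (edgeR adjusted p = 0.015) and with DESeq2 (adjusted p = 0.00218), and its adjusted p lay between 0.00218 and 1 over all alternatives.

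Other genes lower in rapamycin offspring concern secreted signals, receptors and stress proteins. Bambi, a decoy receptor that dampens TGF-beta and BMP signalling, was at 6.29, 8.34 and 7.40 CPM in rapamycin offspring and 17.7, 16.2 and 12.4 CPM in aged offspring (log2 fold change -1.07 ± 0.22). Nppc, the precursor of C-type natriuretic peptide, was at 2.59, 3.49 and 1.98 CPM in rapamycin offspring and 5.95, 7.10 and 5.62 CPM in aged offspring (-1.21 ± 0.27). Adora2b, a receptor for adenosine, was at 8.12, 6.91 and 9.09 CPM in rapamycin offspring and 13.8, 16.9 and 14.8 CPM in aged offspring (-0.91 ± 0.21). Each of these separated rapamycin from aged libraries, with young libraries between the groups or overlapping one of them. Serpini1, the neuronal protease inhibitor neuroserpin, averaged 185 ± 33.3 CPM in rapamycin offspring and 289 ± 27.5 CPM in aged offspring. Bcl6, a transcriptional repressor with a role in neuronal differentiation, averaged 50.5 ± 5.53 CPM in rapamycin offspring and 77.4 ± 10.8 CPM in aged offspring. Arxes2, which has a close paralog in Arxes1, averaged 43.7 ± 2.78 CPM in rapamycin offspring and 64.8 ± 3.43 CPM in aged offspring (SD, n = 3 each for these 3 genes). Reads of overlapping genes on the opposite strand could add to Zfp36 (Gm44710), Gpr17 (Lims2) and Bcl6 (Gm37419), since the strand setting of the counting is not given in the sources used here.

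**Figure D3:**
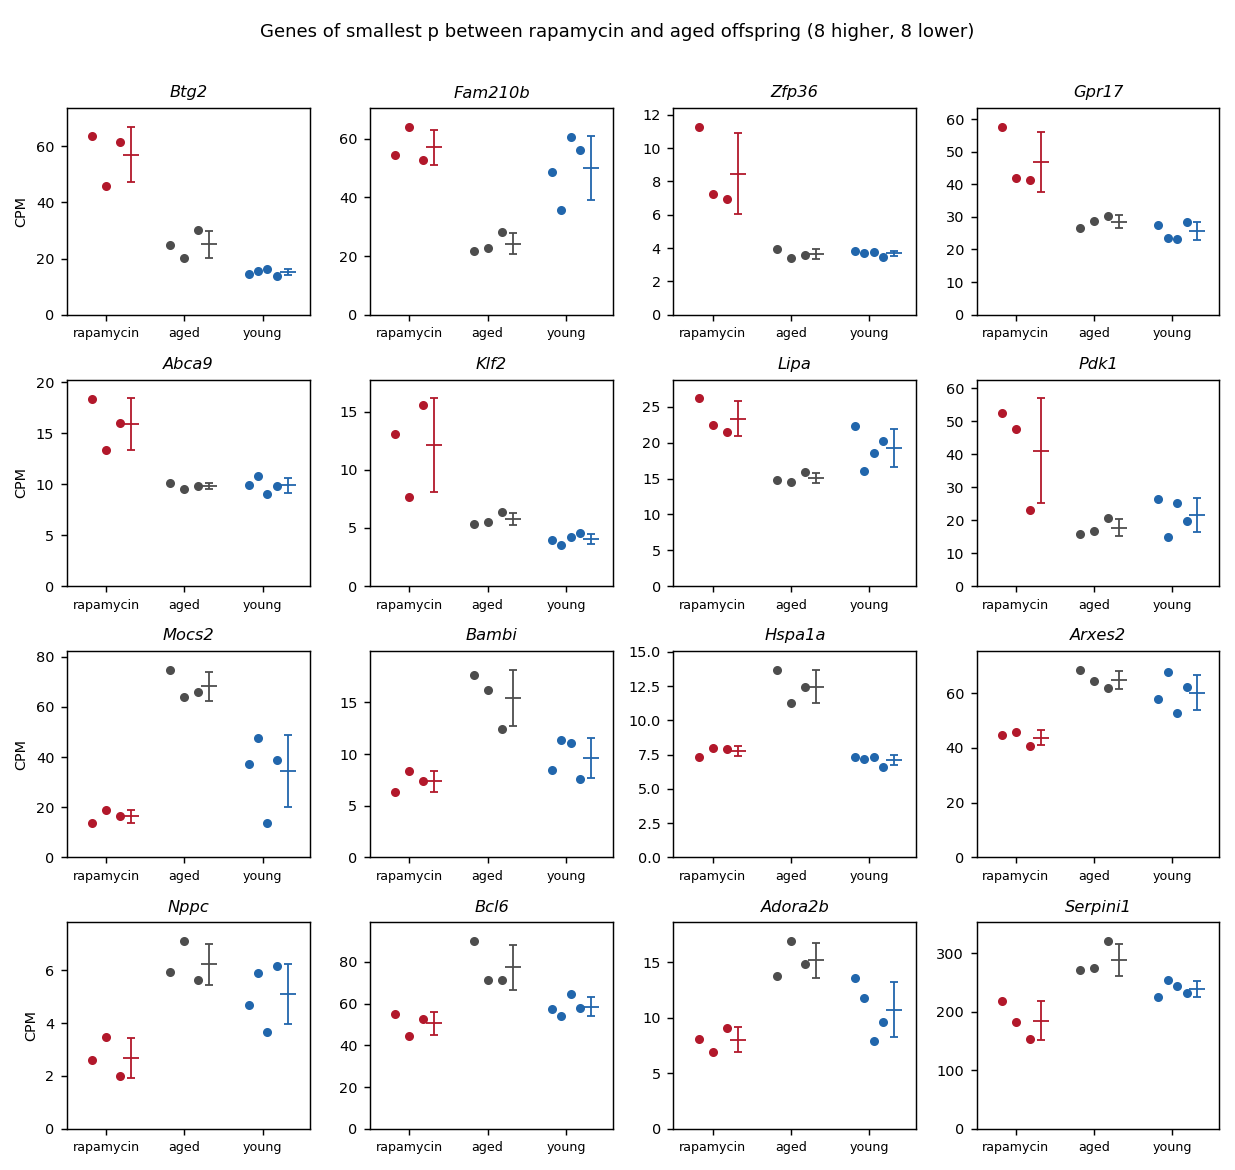
Level in CPM (vertical axes, from 0) in each library (points) of rapamycin, aged and young offspring, with the group mean ± SD as bars, for the 8 genes of smallest p that were higher in rapamycin offspring (upper 2 rows) and the 8 that were lower (lower 2 rows). In every panel the 3 rapamycin libraries lie wholly above or wholly below the 3 aged libraries, a condition for naming the gene; young libraries lie near the rapamycin ones for Fam210b and Hspa1a and near the aged ones for Zfp36, Abca9 and Arxes2.

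Several genes that glucocorticoids induce in brain had lower values in rapamycin offspring. Of 23 tested, 6 were lower and 0 higher at an unadjusted p under 0.05, against 1.99% and 2.53% of all genes, and 7 lay wholly below the aged libraries, against 4.88%. The median log2 fold change was -0.32. Pdk4, which inhibits pyruvate dehydrogenase and responds to fasting and glucocorticoids, was at 15.7, 21.1 and 15.7 CPM in rapamycin offspring, 43.0, 37.0 and 27.1 CPM in aged offspring, and 10.6, 19.1, 11.4 and 13.1 CPM in young offspring. Aged libraries lay above all others, and rapamycin and young libraries overlapped. The log2 fold change was -1.03 ± 0.25 between rapamycin and aged offspring and 0.37 ± 0.23 between rapamycin and young offspring, and neither passed.

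Sgk1, a kinase that regulates ion channels and is induced by steroids, was at 111, 78.7 and 103 CPM in rapamycin offspring and 186, 177 and 122 CPM in aged offspring (log2 fold change -0.73 ± 0.21). Tsc22d3, the glucocorticoid-induced leucine zipper, was at 86.2, 95.9 and 66.3 CPM in rapamycin offspring and 151, 160.1 and 107 CPM in aged offspring (-0.75 ± 0.24). In both genes aged replicate 3 was the lowest of its group and still above every rapamycin library. Cdkn1a, the cell cycle inhibitor p21, averaged 5.37 ± 1.04 CPM in rapamycin offspring, 10.7 ± 3.07 CPM in aged offspring and 5.35 ± 1.47 CPM in young offspring (SD, n = 3, 3 and 4). Fkbp5, a co-chaperone induced by glucocorticoids that was chosen after its values were seen, overlapped between the groups. It was at 84.6, 66.5 and 79.5 CPM in rapamycin offspring and 87.6, 76.3 and 66.7 CPM in aged offspring, the log2 fold change being 0.00 ± 0.14 (95% interval -0.31 to 0.31). The mean level of the list, each gene in log2 CPM centred on the 10 hippocampus libraries, was 0.03, 0.02 and -0.10 log2 units in rapamycin replicates 1, 2 and 3, and 0.51, 0.29 and 0.00 in aged replicates. Aged replicate 1, with the habenula genes, was the highest of the 6. Without it, the median of the list was -0.16 and 5 genes were lower; without any 1 other library the number lower lay between 6 and 9, and without rapamycin replicate 2 there were 2 higher.

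Clock genes follow the time of day, and the labels do not state the hour of collection. Of 20 clock and clock output genes, 2 were lower at an unadjusted p under 0.05, against 1.99% of all genes, and 4 lay wholly below the aged libraries, against 4.88%, with a median of -0.10. The lower ones were Nfil3, a repressor of D-box genes, at 6.49, 11.3 and 7.81 CPM in rapamycin offspring against 11.9, 13.5 and 14.5 CPM in aged offspring, and the nuclear receptor gene Rorb, at 18.0, 22.0 and 15.4 CPM against 26.9, 28.9 and 26.4 CPM in the same order. Rorb is also among the 15 tested markers of neocortex and subiculum. Of these, 2 were lower and 1 higher at an unadjusted p under 0.05, with a median of -0.24. The number of clock genes lower was 1 without rapamycin replicate 3 and without aged replicate 3.

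Several molecular chaperones had lower values in rapamycin offspring. Of 43 heat shock and unfolded protein response genes, 5 were lower and 0 higher at an unadjusted p under 0.05, against 1.99% and 2.53% of all genes. In the same list 9 lay wholly below and 1 wholly above the aged libraries, against 4.88% and 5.01%, and the median log2 fold change was -0.14. The inducible chaperone gene Hspa1a was at 7.30, 7.97 and 7.93 CPM in rapamycin offspring, 13.7, 11.3 and 12.5 CPM in aged offspring, and 7.34, 7.18, 7.29 and 6.61 CPM in young offspring. Rapamycin and young libraries overlapped, below every aged library (log2 fold change -0.69 ± 0.15; edgeR adjusted p = 0.796; DESeq2 adjusted p = 0.015, and between 0.015 and 1 over all alternatives). Hspa1a has a near-identical copy, Hspa1b, and reads of the pair could have been divided between them in counting.

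Herpud1, which assists the degradation of misfolded proteins of the endoplasmic reticulum, was at 38.6, 38.3 and 38.6 CPM in rapamycin offspring and 48.8, 49.3 and 47.7 CPM in aged offspring, the tightest separation among the named genes of this list. Its log2 fold change was -0.34 ± 0.11. The constitutive chaperone gene Hspa8 averaged 1012 ± 55.0 CPM in rapamycin offspring and 1369.6 ± 54.2 CPM in aged offspring, and the co-chaperone gene Dnajb5 134 ± 9.34 CPM and 177 ± 31.6 CPM (SD, n = 3 each). The number of chaperone genes lower was 9 without rapamycin replicate 2, 2 without aged replicate 1, and 3 without rapamycin replicate 1 or 3 or aged replicate 2 or 3.

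Components of the mTOR pathway itself had fold changes on both sides of 0. With 3 libraries a group, differences in single genes could have been missed. Of 52 tested, 27 had a fold change above 0, and the median log2 fold change was 0.01. In this list 5 lay wholly above and 2 wholly below the aged libraries, against 5.01% and 4.88% of all genes. At an unadjusted p under 0.05 there was 1 higher and 1 lower. The higher one, Nprl3, a subunit of the GATOR1 complex that restrains mTOR complex 1 when amino acids are scarce, was at 27.9, 27.9 and 26.7 CPM in rapamycin offspring and 18.0, 22.9 and 18.9 CPM in aged offspring (log2 fold change 0.46 ± 0.14). The lower one, Ddit4, an inhibitor of mTOR complex 1 that stress and glucocorticoids induce, was at 49.1, 63.0 and 62.8 CPM in rapamycin offspring and 90.4, 82.9 and 69.7 CPM in aged offspring (-0.47 ± 0.16). Neither overlapped between the groups. Reads of Nprl3 may include some of Mpg, which overlaps it on the opposite strand. Without rapamycin replicate 2, there were 7 higher and 13 lower, against 10.9% and 12% of all genes. Without aged replicate 3 there were 4 and 3, and without rapamycin replicate 1 or aged replicate 1 there were 1 and 0.

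Mtor, the kinase, was at 137, 86.7 and 122 CPM in rapamycin offspring and 75.9, 80.9 and 104 CPM in aged offspring, so the groups overlapped (log2 fold change 0.41 ± 0.23, 95% interval -0.11 to 0.92). Eif4ebp1, a translation repressor that mTOR phosphorylates, was at 0.913, 3.30 and 0.991 CPM in rapamycin offspring and 3.73, 3.66 and 1.86 CPM in aged offspring (-0.84 ± 0.57). Log2 fold changes were 0.18 ± 0.16 for Rptor, which binds substrates, 0.26 ± 0.21 for Tsc1 and 0.33 ± 0.21 for Tsc2, whose products inhibit the pathway. They were 0.19 ± 0.18 for Rps6kb1, the S6 kinase, and -0.11 ± 0.17 for Fkbp1a, the drug's binding partner. With the ribosomal protein level as a covariate, Rps6kb1 stood at -0.03 and Fkbp1a at 0.04. Of 64 autophagy and lysosome genes, 0 were past an unadjusted p of 0.05 in either direction, and the median was 0.00. In this list 5 lay wholly above and 1 wholly below the aged libraries, against 5.01% and 4.88% of all genes. Leaving out rapamycin replicate 2 gave 2 higher and 10 lower at an unadjusted p under 0.05, against 10.9% and 12% of all genes. Grn, the precursor of progranulin, had a log2 fold change of 0.21 ± 0.11.

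Genes of the translation machinery, a main output of mTOR, were lower on average but differed more between libraries than between groups. Of 76 cytosolic ribosomal protein genes, 75 had a fold change below 0, with a median of -0.38 log2 units, while 0 separated the groups and 1 (Rpl35a) was lower at an unadjusted p under 0.05. The mean centred level of the list was -0.92, 0.64 and -0.43 log2 units in rapamycin replicates 1, 2 and 3, and 0.49, 0.37 and 0.03 in aged replicates. Rapamycin replicate 2 was thus the highest of the 6 libraries, and the other replicates of its group the lowest. Rpl7, a protein of the large subunit, shows this pattern with 174, 425 and 238 CPM in rapamycin offspring and 499, 400.1 and 345 CPM in aged offspring. Without rapamycin replicate 2, 74 of the 76 were lower at an unadjusted p under 0.05. Nuclear genes of the respiratory chain ran parallel. Of 75, 74 were below 0 (median -0.29) and 0 passed an unadjusted p of 0.05, or 63 without rapamycin replicate 2. Ndufs4, a subunit of complex I, was at 38.9, 73.4 and 43.5 CPM in rapamycin offspring and 89.8, 72.5 and 73.2 CPM in aged offspring.

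Translation factors had the same order of libraries, at a smaller size. The mean centred level of the list was -0.26, 0.16 and -0.18 log2 units in rapamycin replicates 1, 2 and 3, and 0.11, 0.10 and 0.06 in aged replicates. Of 46, 40 had a fold change below 0, 2 were lower at an unadjusted p under 0.05, against 1.99% of all genes, and 7 lay wholly below and 0 above the aged libraries, against 4.88% and 5.01%, with a median of -0.15. Eif1a, an initiation factor that helps the ribosome find the start codon, was at 48.4, 54.6 and 51.9 CPM in rapamycin offspring and 72.0, 63.4 and 70.4 CPM in aged offspring (log2 fold change -0.41 ± 0.16). Eif3m, a subunit of the eIF3 complex, was at 54.6, 94.9 and 62.0 CPM in rapamycin offspring and 118, 99.0 and 99.0 CPM in aged offspring, where rapamycin replicate 2 again came closest to the aged group. Without that library, 21 of the 46 were lower at an unadjusted p under 0.05, and without any 1 other library the number lay between 0 and 5, with 0 without rapamycin replicate 1, aged replicate 1 or aged replicate 3.

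Synaptic genes leaned the other way. Median log2 fold changes were 0.18 over 29 glutamate receptor and auxiliary subunit genes, 24 of them above 0, 0.14 over 28 postsynaptic scaffold and kinase genes, and 0.15 over 29 genes of transmitter release, against 0.02 over all genes. At an unadjusted p under 0.05, these lists held 1, 1 and 1 genes higher and 1, 0 and 0 lower. Leaving out rapamycin replicate 2 gave 3, 2 and 7 higher, and leaving out aged replicate 1 gave 0, 0 and 0, with medians of 0.11, 0.12 and 0.06. Shank1, a scaffold of the postsynaptic density, was at 462, 582 and 516 CPM in rapamycin offspring and 299, 338 and 439 CPM in aged offspring (log2 fold change 0.54 ± 0.23). Rims1, an organiser of the presynaptic active zone, was at 134, 176 and 129 CPM in rapamycin offspring and 66.2, 106 and 103 CPM in aged offspring (0.67 ± 0.26). In both genes all rapamycin libraries lay above all aged ones. Grm2, a presynaptic glutamate receptor that lowers release, went against its list with 55.3, 45.1 and 62.2 CPM in rapamycin offspring and 88.0, 81.3 and 63.2 CPM in aged offspring (-0.52 ± 0.19).

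Over 20 genes of GABA receptors and GABA synthesis, 11 had a fold change above 0 and 9 below, and the median was 0.05, or -0.04 without rapamycin replicate 1 and -0.02 without rapamycin replicate 3. At an unadjusted p under 0.05, 0 were higher and 2 lower, and 1 lay wholly above and 2 wholly below the aged libraries. Of 62 potassium channel genes, 2 were higher and 3 lower at an unadjusted p under 0.05, or 10 and 3 without rapamycin replicate 2. Kcnj4, an inward rectifier, averaged 59.2 ± 3.19 CPM in rapamycin offspring and 76.4 ± 5.75 CPM in aged offspring (SD, n = 3 each).

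**Figure D4:**
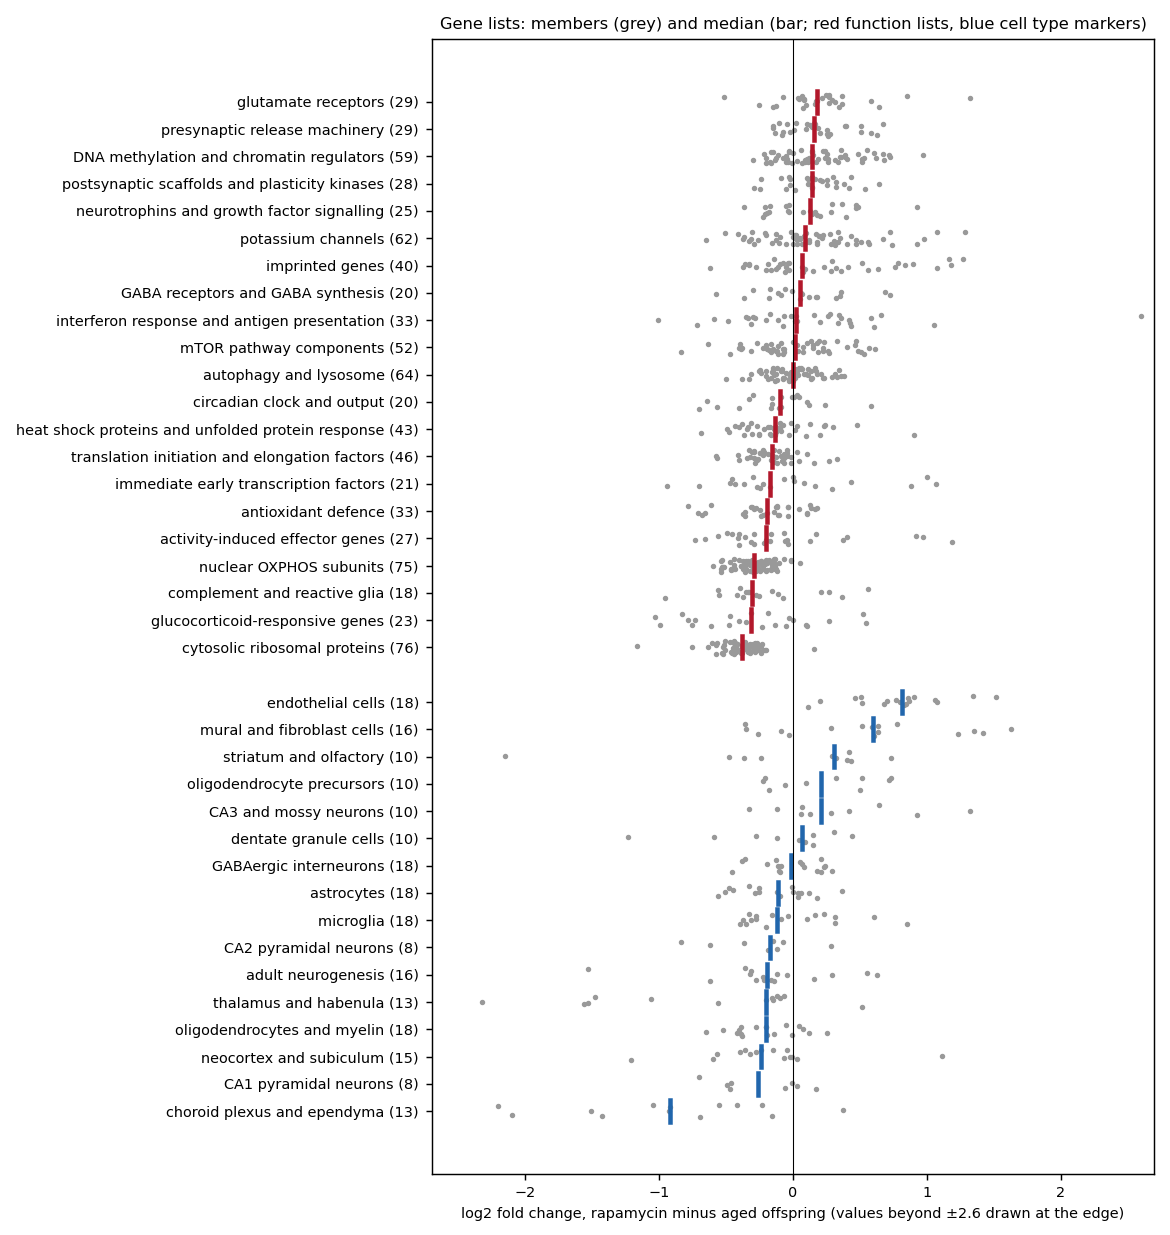
Log2 fold change between rapamycin and aged offspring (horizontal axis) of the tested members (grey points) and the median (bar) of each gene list, with the number of members in brackets. Medians of function lists lie between -0.38 for ribosomal proteins and 0.18 for glutamate receptors; among cell type markers they reach 0.81 for endothelial cells and -0.92 for choroid plexus and ependyma.

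Markers of vascular cells were higher in 2 of the 3 rapamycin libraries than in the aged ones. Among 18 endothelial genes, all 18 had a fold change above 0, with a median of 0.81, and 5 were higher at an unadjusted p under 0.05, yet 0 separated the groups. Kdr, the main receptor for vascular endothelial growth factor, was at 25.1, 7.41 and 20.8 CPM in rapamycin offspring and 5.95, 6.71 and 8.39 CPM in aged offspring. Cldn5, which seals the blood-brain barrier, was at 31.2, 12.3 and 32.6 CPM in rapamycin offspring and 15.2, 15.9 and 10.9 CPM in aged offspring. In both, rapamycin replicates 1 and 3 were high and replicate 2 lay in the aged range. The mean centred level of the endothelial list was 0.65, -0.56 and 0.64 log2 units in rapamycin replicates and -0.29, -0.51 and -0.41 in aged replicates, and its summed level between 239.8 and 530.83 CPM in rapamycin offspring and between 261.73 and 300.29 CPM in aged offspring. In young replicates the centred level was 0.39, -0.77, 0.49 and 0.38. Against young offspring, the median of the list was -0.63 for aged offspring and 0.19 for rapamycin offspring, comparisons that share the young libraries. Without rapamycin replicate 2, 15 of the 18 were higher at an unadjusted p under 0.05, without replicate 1 or 3 of that group 0 were, without aged replicate 2 or 3 there were 1 and 2, without aged replicate 1, young replicate 1 or young replicate 4 there were 3, and without young replicate 2 there were 11.

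Mural and fibroblast genes followed, with a median of 0.60 over 16 genes and 3 higher at an unadjusted p under 0.05, or 8 without rapamycin replicate 2, 0 without rapamycin replicate 1 or 3, and 1 without aged replicate 1, aged replicate 3 or young replicate 1. Notch3, a receptor of vascular smooth muscle cells and pericytes, was at 18.0, 6.97 and 15.2 CPM in rapamycin offspring and 4.34, 6.71 and 6.03 CPM in aged offspring. Oligodendrocyte genes ran opposite, at -0.73, 0.63 and -0.02 log2 units in rapamycin replicates and 0.27, 0.69 and -0.28 in aged replicates, and so did microglial genes, at -0.34, 0.45 and -0.21 and at 0.12, 0.05 and -0.07. Mbp, a major protein of myelin, spanned 1605 to 6896 CPM in rapamycin offspring and 2693 to 6976 CPM in aged offspring. Rapamycin replicate 2 was thus high in ribosomal, respiratory, oligodendrocyte and microglial genes and low in vascular ones, and rapamycin replicates 1 and 3 were the reverse in ribosomal, respiratory, microglial and vascular genes. The part of this library difference in the gene values above was not tested beyond leaving libraries out and the covariate for the ribosomal protein level. With that covariate, edgeR called 0 genes of the 10-library fit.

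**Figure D5:**
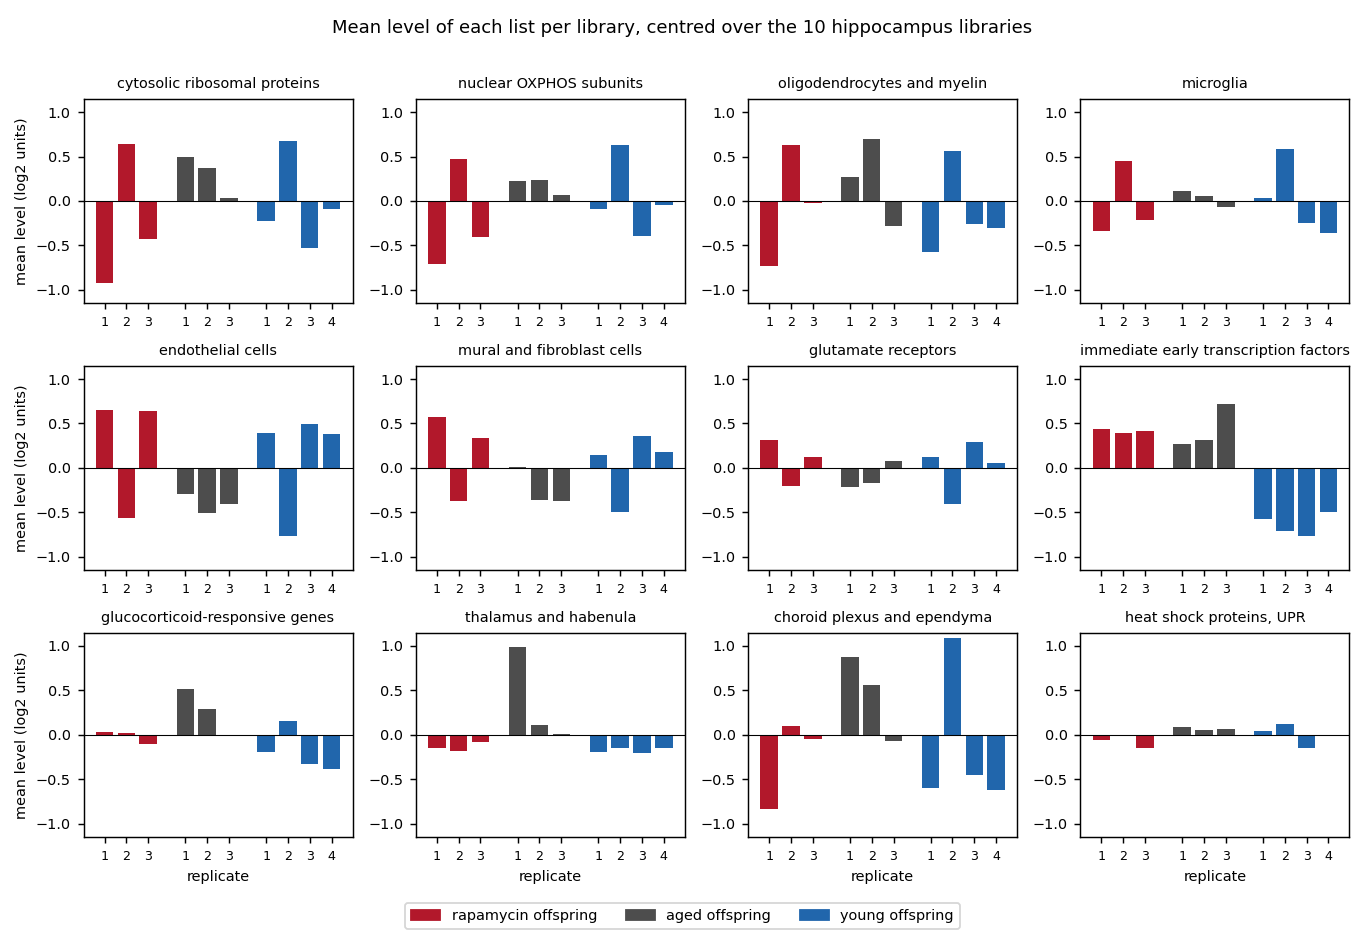
Mean centred level (vertical axes, log2 units, from all 10 hippocampus libraries) of 12 gene lists in each replicate of rapamycin, aged and young offspring. Rapamycin replicate 2 and young replicate 2 are high in ribosomal protein, respiratory chain, oligodendrocyte and microglial genes and low in endothelial and mural genes; aged replicate 1 is at 0.99 for thalamus and habenula genes, above every other library.

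Genes of neighbouring regions stood apart in 1 library. Of 13 thalamus and habenula genes tested, 3 were lower in rapamycin offspring at an unadjusted p under 0.05, with a median of -0.20, and the list level was -0.15, -0.19 and -0.07 log2 units in rapamycin replicates and 0.99, 0.11 and 0.00 in aged replicates. Gpr151, a receptor of habenular neurons, was at 18.7 CPM in aged replicate 1 and between 0.832 and 1.57 CPM in the other 5 libraries. Its log2 fold change of -2.32 ± 0.97 became 0.53 without that library. Slc17a6, the vesicular glutamate transporter of subcortical neurons, was at 11.1, 13.0 and 4.55 CPM in rapamycin offspring and 37.5, 19.6 and 27.6 CPM in aged offspring, so it was higher in all 3 aged libraries. The range of its log2 fold change with 1 library left out was -1.86 to -1.24. Without aged replicate 1 or rapamycin replicate 1, 1 gene of the list was lower at an unadjusted p under 0.05, and without aged replicate 2 or 3 there were 5. Summed levels of the list were between 175.82 and 232.56 CPM in rapamycin offspring and between 219.88 and 330.65 CPM in aged offspring. Choroid plexus and ependymal genes were lower as a list (12 of 13 below 0, median -0.92), or -0.39 without aged replicate 1, with wide spread within groups. Ttr, the transthyretin carrier of cerebrospinal fluid, was at 0.710, 12.9 and 16.7 CPM in rapamycin offspring and 28.8, 11.5 and 8.44 CPM in aged offspring.

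Within the hippocampus, markers of CA1 pyramidal neurons had a median of -0.26 over 8 genes, of CA2 -0.17 over 8, of CA3 and mossy cells 0.21 over 10, and of dentate granule cells 0.07 over 10. With 1 library left out, the medians lay between -0.44 and -0.12 for CA1 and between -0.42 and -0.09 for CA2. That of CA3 and mossy cells was -0.02 without rapamycin replicate 3, and that of dentate granule cells was below 0 without rapamycin replicate 1 or 3 (-0.02 each) or aged replicate 3 (-0.06). Lamp5, a marker of a class of interneurons that also lies in neocortical neurons, was at 35.1, 34.5 and 34.0 CPM in rapamycin offspring and 40.5, 47.2 and 45.2 CPM in aged offspring (log2 fold change -0.36 ± 0.11). Of 10 oligodendrocyte precursor genes, 6 had a fold change above 0 and 4 below, with a median of 0.21, or 0.04 without aged replicate 3. At an unadjusted p under 0.05, 2 were higher, Gpr17 and Pdgfra. Pdgfra, the growth factor receptor that defines these cells, was at 75.2, 52.1 and 76.4 CPM in rapamycin offspring and 44.2, 52.0 and 47.7 CPM in aged offspring, where the lowest rapamycin library and the highest aged one nearly met. Cx3cr1, the fractalkine receptor of microglia, was at 28.9, 46.7 and 32.7 CPM in rapamycin offspring and 27.7, 18.8 and 24.6 CPM in aged offspring, while the microglial list as a whole had a median of -0.12, which was 0.05 without rapamycin replicate 1, 0.01 without rapamycin replicate 3 and -0.42 without rapamycin replicate 2.

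Of 59 DNA methylation and chromatin genes, 4 were higher and 0 lower at an unadjusted p under 0.05, against 2.53% and 1.99% of all genes (median 0.14). There were 22 higher and 3 lower without rapamycin replicate 2, against 10.9% and 12% of all genes. The number higher was 0 without rapamycin replicate 3 or aged replicate 1. It was 1 without rapamycin replicate 1, aged replicate 2 or young replicate 4, and 2 without young replicate 1. Mbd1, which binds methylated DNA, was at 33.3, 28.3 and 30.4 CPM in rapamycin offspring and 23.9, 23.1 and 25.0 CPM in aged offspring. Tet1, which oxidises methylcytosine, was at 13.6, 6.97 and 10.0 CPM in rapamycin offspring and 4.89, 6.21 and 7.53 CPM in aged offspring, with overlap. Among 40 imprinted genes 1 was higher and 0 lower (median 0.07), or 7 and 4 without rapamycin replicate 2 and 0 and 0 without rapamycin replicate 1. Meg3, a maternally expressed long RNA, was at 1721, 275 and 1180.1 CPM in rapamycin offspring and 456, 529 and 415 CPM in aged offspring, so rapamycin libraries lay on both sides of the aged ones.

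Of 33 interferon and antigen presentation genes, 0 were higher and 1 lower at an unadjusted p under 0.05, with a median of 0.02. The lower one, Ifit2, an interferon-induced protein, was at 6.75, 9.02 and 7.11 CPM in rapamycin offspring and 14.3, 16.5 and 15.1 CPM in aged offspring (log2 fold change -1.01 ± 0.28), without overlap. Young offspring spanned both, between 6.63 and 14.7 CPM. Against young offspring the median of this list was -0.64 for rapamycin offspring and -0.67 for aged offspring, comparisons that share the young libraries. Of 33 antioxidant genes, 1 was lower, Txnip, an inhibitor of thioredoxin, at 10.2, 13.9 and 12.9 CPM in rapamycin offspring and 27.0, 20.5 and 12.0 CPM in aged offspring. The number of antioxidant genes lower was 14 without rapamycin replicate 2 and 0 without rapamycin replicate 1 or 3 or aged replicate 1 or 2. Of 25 growth factor signalling genes and of 18 complement and reactive glia genes, 0 passed an unadjusted p of 0.05. Without rapamycin replicate 2 there were 5 higher and 1 lower among growth factor genes, and 1 higher and 2 lower among complement genes.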

How the data were processed

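Poly-A RNA libraries of the hippocampus were sequenced; per the submitters' processing notes, reads were processed with STAR, HTSeq and the mm10 build. The deposited values are counts of reads per gene, 24491 genes a library, not normalised; neither a strand setting nor an annotation version is stated by these sources. The 5 summary rows of each file were left out (reads outside genes were 11.6% to 16% of all over the 10 libraries).

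Groups followed the labels, and same-numbered samples are not said to be related. Counts of all 10 hippocampus libraries (16434398 to 20220617 in total) were fitted together with edgeR 4.0.16 in R 4.3.3: filterByExpr left 14877 genes, TMM scaling, quasi-likelihood F-test of rapamycin against aged offspring, Benjamini-Hochberg adjustment over all genes, threshold 0.05. The biological coefficient of variation was 23.5%. Standard errors are the log2 fold change divided by the square root of F. DESeq2 1.42.0, other scalings, filters, left-out libraries, a replicate block and a ribosomal protein covariate were alternatives; the script was tested on simulated data. Promoters were matched by symbol to RefSeq (GRCm38.p6), and gene positions are those of GENCODE vM21. Figures used Python 3.11.15 and matplotlib 3.10.9.

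The comparison and the gene lists were chosen with earlier results of these data known. Since under 5 genes passed in each direction, the rule named the 8 genes of smallest p each way that had a mean of at least 2 log2 CPM, a standard symbol and libraries that did not overlap, up to 4 members of each list by smallest p, and fixed genes of the mTOR pathway and of neuronal activity. Cyr61, Fkbp5, Cldn5, Mbp, Ttr, Pou4f1, Chrnb3, Tuba1c, H2-T23 and 2610507I01Rik fall outside it and were chosen after their values were seen. Of the lists, blood cells and sex chromosome transcripts each had 1 tested member. Some genes that the rule names are not reported here.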

Additional observations from a re-analysis of the deposited data

Results flagged for a closer look

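Among 31 genes examined for a library far from the others of its group, both of the values that stood out belonged to young offspring replicate 2, in the group of 4 young libraries; groups of 3 were not examined. Ddit4, the stress-induced inhibitor of mTOR complex 1, was at 64.0 CPM there, against 49.7 to 50.9 CPM in the other young libraries. Rps6kb1, the S6 kinase, was at 48.9 CPM there. For each, the gap to the nearest library divided by the range of the group was above the 95% critical value of Dixon's test for 4 samples. Chance alone marks about 1 in 20 groups.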

How the results depend on the processing

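Of the alternatives, most left the number of genes called at 0. It was 2 (0 higher, 2 lower) with only the 6 libraries compared, 13 (4 higher, 9 lower) with DESeq2, and 2 (2 lower: Mocs2 and 2610507I01Rik) with the 6 libraries and the ribosomal protein level as covariate, which was chosen after seeing the data. Leaving out 1 library gave 0 to 1 genes (0 to 1 lower), the 1 being Mocs2 without young replicate 3. Same-numbered rapamycin and aged libraries deviated from their group means with correlations of -0.09, 0.20 and -0.05. Differently numbered ones lay between -0.18 and 0.24. With so few libraries, this cannot decide whether the numbers pair them, which the labels do not state. With the replicate block in the 6 libraries, edgeR called 0 genes (680 at an unadjusted p under 0.05). With the ribosomal protein level as covariate, log2 fold changes reversed for Unc13b (-0.084), Meg3 (-0.045), Insr (-0.019), Reln (-0.011), Mal (0.041), Xist (-0.21), Rps6kb1 (-0.033) and Fkbp1a (0.041). With that covariate in the 6 libraries they were -0.029 for Unc13b, -0.060 for Meg3, -0.082 for Kcnq1ot1, -0.035 for Insr, -0.048 for Reln, 0.032 for Mal, -0.27 for Xist, -0.098 for Rps6kb1 and 0.035 for Fkbp1a. With 1 library left out, log2 fold changes ranged between -0.12 and 1.44 for Cartpt, -0.62 and 0.071 for C4b, -0.30 and 0.066 for Arc, -0.40 and 0.031 for Egr1, and -2.85 and 0.53 for Gpr151. That of Lefty1, at 0 counts in every rapamycin library, lay between -9.32 and 0. The value of 0 was the one without aged replicate 3, so the difference in Lefty1 rests on that library. The causes were not tested. Genes that the expression filter left out were not compared in the main fit.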

Other observations

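Some genes differed widely between replicates of 1 group. The span within a group was not set against the difference between groups. Of 11803 genes that averaged 2 log2 CPM or more, 33 spanned more than 8-fold within at least 1 group, 16 of them in rapamycin offspring, 6 in aged offspring and 17 in young offspring. Tuba1c, an alpha-tubulin, was at 0.913, 29.5 and 22.97 CPM in rapamycin offspring, 21.9, 56.6 and 31.7 CPM in aged offspring, and 31.3, 0.990, 0.453 and 30.1 CPM in young offspring, so 1 rapamycin and 2 young libraries were low and the rest high. H2-T23, a non-classical class I histocompatibility gene, is not among the 33. It was at 4.92, 7.90 and 0 CPM in rapamycin offspring, 0.0556, 0 and 0.201 CPM in aged offspring, and 0, 0, 11.3 and 0 CPM in young offspring. Mocs2 and 2610507I01Rik shared low values in the 3 rapamycin libraries and in young replicate 3. The labels give CD1 mice, an outbred stock, and the part of genotype in these steps was not tested.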
